A study of Danio rerio with 2 samples.

Results

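The gastrula array of the series compared zebrafish (Danio rerio) embryos that received the MO2-ers2a morpholino with embryos that received a control morpholino, called MO-control, at 8 hours post fertilization (hpf). A morpholino is an antisense oligonucleotide, and MO2-ers2a keeps the message of estrogen receptor beta2 from being translated; the ers2a of the labels is read as today's esr2a. Both morpholinos were injected into ovulated oocytes at 10.3 ng per embryo, and both groups were whole embryos raised at the same temperature. Total RNA was extracted with Trizol and labelled with Cy5 for MO2-ers2a and with Cy3 for MO-control. The 8 hpf stage had 1 array and no dye swap, as did the 48 hpf stage, so no value has a replicate error, no p-value is given, and a dye bias of a gene and a difference between the groups cannot be told apart. How many embryos made up an RNA sample is not given in the sources used here. In RNA of whole embryos, fewer cells of a type and less RNA per cell cannot be told apart either.

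A spot was taken as measured when its background-subtracted signal passed 24.4 in Cy5 and 59.9 in Cy3, which lie 2.6 SD above the mean of 153 negative control spots. Of 43839 spots that are not controls, 19465 (44.4%) were measured at 8 hpf. They gave a log2 ratio of MO2-ers2a over MO-control for 15357 genes and transcripts, of 18812 measured on either array of the series, and 8285 of the 15357 had a current gene symbol. A positive log2 ratio means more signal in MO2-ers2a embryos, and a gene with several spots has the median over them. Calls are made at a difference of 2-fold or more, a rule of size and not a test. The gastrula genes tbxta, gsc, chrd and ved, which mark the mesoderm, the organizer and the ventral side, had normalized signals of 18484 to 57321 in MO2-ers2a embryos and 13950 to 46709 in MO-control embryos, so the markers of the labelled stage were present in both channels.

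At 8 hpf the zebrafish embryo is a gastrula. Cells of the blastoderm spread over the yolk beneath an outer enveloping layer, and converge and extend along the axis, while gradients of BMP, Wnt, Nodal, FGF and retinoic acid signals set the fates of the germ layers. Transcripts stored in the egg, among them those of the germ plasm, are still present beside the newly made ones of the embryo. The receptor encoded by esr2a is a transcription factor of the nuclear receptor family that binds estrogen.

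In MO2-ers2a embryos, 356 genes and transcripts (2.32% of those measured) were 2-fold or more higher and 346 (2.25%) were 2-fold or more lower. Together they made up 4.57%, and 103 (0.671%) passed 4-fold. Among genes with a symbol, 146 (1.76%) were higher and 183 (2.21%) lower. The middle 90% of genes lay between log2 ratios of -0.72 and 0.72. Spots that share a gene had a pooled SD of 0.32, which is spread within the array and not between embryos. Of genes with 1 measured spot, 5.11% passed 2-fold, against 2.54% of genes with 2 or more spots.

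**Figure D1:**
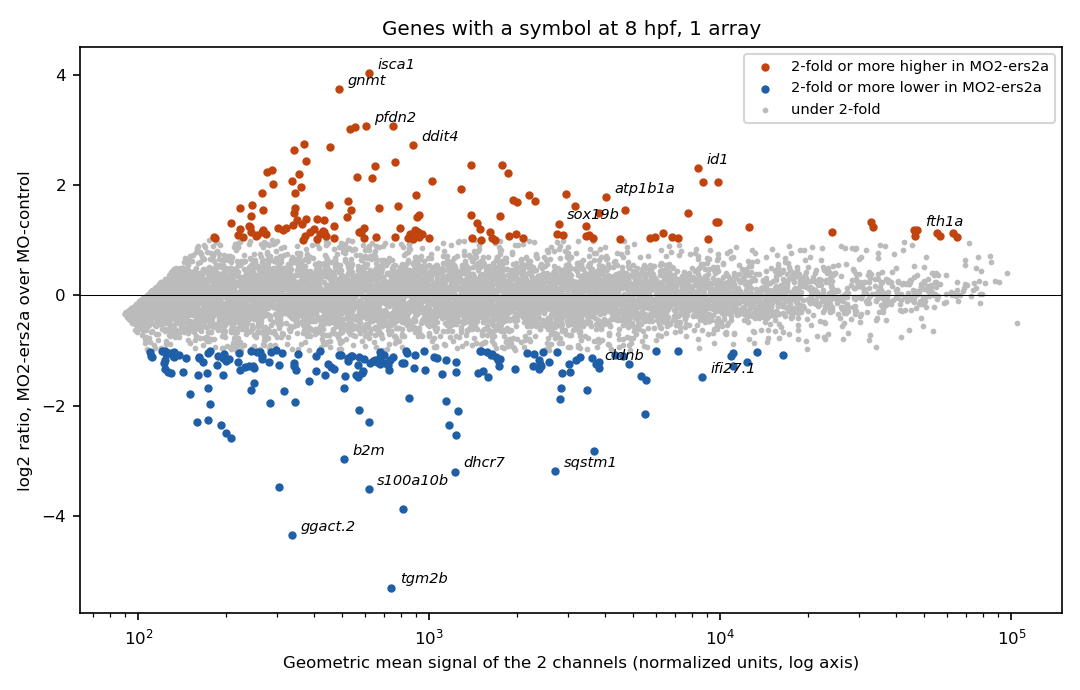
Each point is a gene with a symbol at 8 hpf, with the geometric mean of its MO2-ers2a and MO-control signals on a log axis (normalized units) and its log2 ratio of MO2-ers2a over MO-control on the vertical axis. Orange points (146) are 2-fold or more higher and blue points (183) 2-fold or more lower in MO2-ers2a embryos, and the dimmest genes at the left edge hold no higher ones.

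The plot of ratios against signal shows that the calls were spread unevenly over brightness. With genes ranked by mean signal and cut into 5 equal groups, the dimmest group reached a mean signal of 162.5, and in it 0 were 2-fold higher and 55 were 2-fold lower. The detection limits were 24.4 in Cy5 and 59.9 in Cy3. A dim gene thus had more room to be called lower than higher, and the size of this effect was not tested. In the brightest group, with mean signals from 3076 upward, 71 were higher and 41 lower. Other scalings, which left out the loess, moved the median of all genes to between -0.42 (spike-in spots) and 0.54 (all spots), against -0.02 as reported. With loess kept, centring on spike-in spots gave -0.18. The sign of a value can thus change with the loess and the scaling together. As an example, aifm1, a gene of the apoptosis list, stood at -0.68 as reported. Without loess it stood at -0.43 with centring on measured spots and at 0.14 with centring on all spots. Gene groups are therefore described by how many members lay above or below the median of all genes, and a group median is given as its distance from that value. Counts of members past 2-fold use the log2 ratio as reported, and they can change with the scaling.

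The estrogen receptor transcripts themselves were too dim for a ratio. A spot of esr2a had a raw median signal of 99.5 over a background of 85.0 in the MO2-ers2a channel, and of 83.5 over 49.0 in the MO-control channel. The other esr2a spot, the spot of esr1 and both spots of esr2b were likewise not above the limits in either channel. Blocking translation can leave the amount of message as it was, so these spots do not check the labels. Of 16 estrogen-responsive genes on the array, 7 were measured. Of these 7, f13a1b, a coagulation factor subunit that crosslinks fibrin, was 2-fold higher, with a signal of 1468 in MO2-ers2a embryos and 288.6 in MO-control embryos, a log2 ratio of 2.35. None was 2-fold lower, and the lowest was nots, an aspartic protease gene, at -0.80 with 1 spot. Among all genes 2.32% were 2-fold higher and 2.25% 2-fold lower.

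The calls with the most measurements behind them were those of genes with 2 or more spots, all 2-fold the same way. This held for 19 genes and transcripts that were higher and 21 that were lower, of which 11 and 15 had a symbol. By their medians, 45 of the 3228 genes with 2 or more spots were 2-fold higher and 37 were 2-fold lower. Calls by the median thus often included a spot that did not pass 2-fold. A further 620 calls rested on 1 spot.

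**Figure D2:**
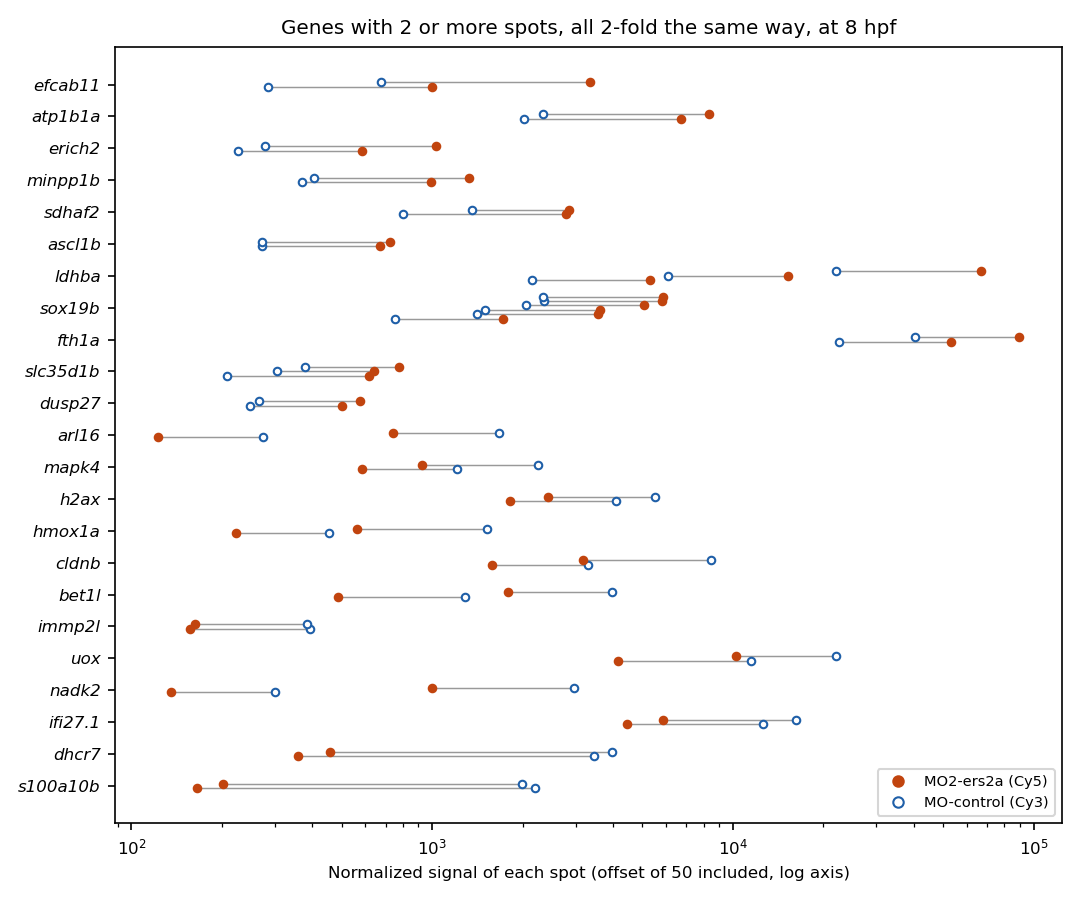
Normalized signals on a log axis for every measured spot of 23 genes with 2 or more spots, all 2-fold the same way at 8 hpf, with filled orange circles for MO2-ers2a (Cy5), open blue circles for MO-control (Cy3) and a grey line joining the channels of a spot. The 11 genes at the top, from efcab11 to dusp27, have every orange circle to the right of the blue one, and the 12 below, from arl16 to s100a10b, have it to the left.

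Among the higher genes of this kind, efcab11, which encodes an EF-hand protein, had a signal of 2170 in MO2-ers2a embryos and 479 in MO-control embryos. Its spots gave log2 ratios of 1.82 and 2.31. The gene atp1b1a, which encodes a beta subunit of the sodium pump, had 7518 in MO2-ers2a embryos and 2180 in MO-control embryos, and its spots stood at 1.73 and 1.83. By the choice of these genes, every spot was on the higher side. The soxB1 factor gene sox19b, which is active in the early ectoderm and in the supply of the egg, had 4334 in MO2-ers2a embryos and 1782 in MO-control embryos, and all of its 6 spots fell between 1.19 and 1.33. The lactate dehydrogenase gene ldhba had 15224 in MO2-ers2a embryos and 6080 in MO-control embryos, a log2 ratio of 1.32 over 3 spots. The iron storage gene fth1a, a ferritin heavy chain, was bright in both channels, with 71291 in MO2-ers2a embryos and 31526 in MO-control embryos. These genes differ widely in what they do. The others were ascl1b, a proneural factor, at 1.36, sdhaf2, an assembly factor of succinate dehydrogenase, at 1.43, minpp1b, an inositol polyphosphate phosphatase, at 1.57, erich2 at 1.63, slc35d1b, a nucleotide sugar transporter, at 1.08 and dusp27 at 1.07.

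Among the lower genes of this kind, s100a10b, whose protein is a calcium-binding family member that pairs with annexin A2, had a signal of 184 in MO2-ers2a embryos and 2094 in MO-control embryos, 11.4-fold lower. The gene dhcr7, whose enzyme completes cholesterol synthesis, had 407 in MO2-ers2a embryos and 3714 in MO-control embryos, 9.18-fold lower. In both genes the spots agreed closely, at -3.73 and -3.30 for s100a10b and at -3.27 and -3.12 for dhcr7. The interferon-inducible gene ifi27.1 had 5164 in MO2-ers2a embryos and 14395 in MO-control embryos, a log2 ratio of -1.48 over 2 spots. The urate oxidase gene uox stood at -1.29, and nadk2, a mitochondrial NAD kinase, at -1.36. Also lower were immp2l, a peptidase subunit of the inner mitochondrial membrane, at -1.28, bet1l, a SNARE of the Golgi, at -1.28, the claudin cldnb at -1.24, the heme oxygenase hmox1a at -1.24, the histone variant h2ax at -1.18, the atypical kinase mapk4 at -1.17 and the small GTPase arl16 at -1.17. These are the 12 lowest of the 15.

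The widest ratios of the array rested on 1 spot each. The gene tgm2b, which encodes a transglutaminase, an enzyme that crosslinks proteins, had a signal of 118 in MO2-ers2a embryos and 4649 in MO-control embryos. ggact.2, whose enzyme breaks down the crosslink products of transglutaminases, had 74.7 in MO2-ers2a embryos and 1520 in MO-control embryos. These make log2 ratios of -5.30 and -4.35, and by function the genes belong to the same crosslinking chemistry. A further transglutaminase gene, tgm2l, went the other way, with 921 in MO2-ers2a embryos and 316 in MO-control embryos, a log2 ratio of 1.54. The gene ggact.1 was measured in the MO2-ers2a channel only and was at least 2.51-fold higher. Whether the related copies cross-hybridise was not tested. Of genes far higher, isca1 had 2516 in MO2-ers2a embryos and 153 in MO-control embryos. The glycine methyltransferase gene gnmt had 1789 in MO2-ers2a embryos and 134 in MO-control embryos. Both had MO-control signals close to the dim end of the array, where the offset of 50 added to each channel narrows a ratio, and the authors' deposited ratios were wider, at 4.88 for isca1 and 5.48 for gnmt on the log2 scale.

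The lists of signalling pathways had medians above that of all genes, while few of their members passed 2-fold. The distance was 0.24 for BMP, 0.21 for retinoic acid, 0.19 for Wnt beta-catenin, 0.16 for FGF, 0.11 for Hedgehog, 0.09 for Notch and 0.04 for Nodal, and for Nodal its sign changed with the setting.

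**Figure D3:**
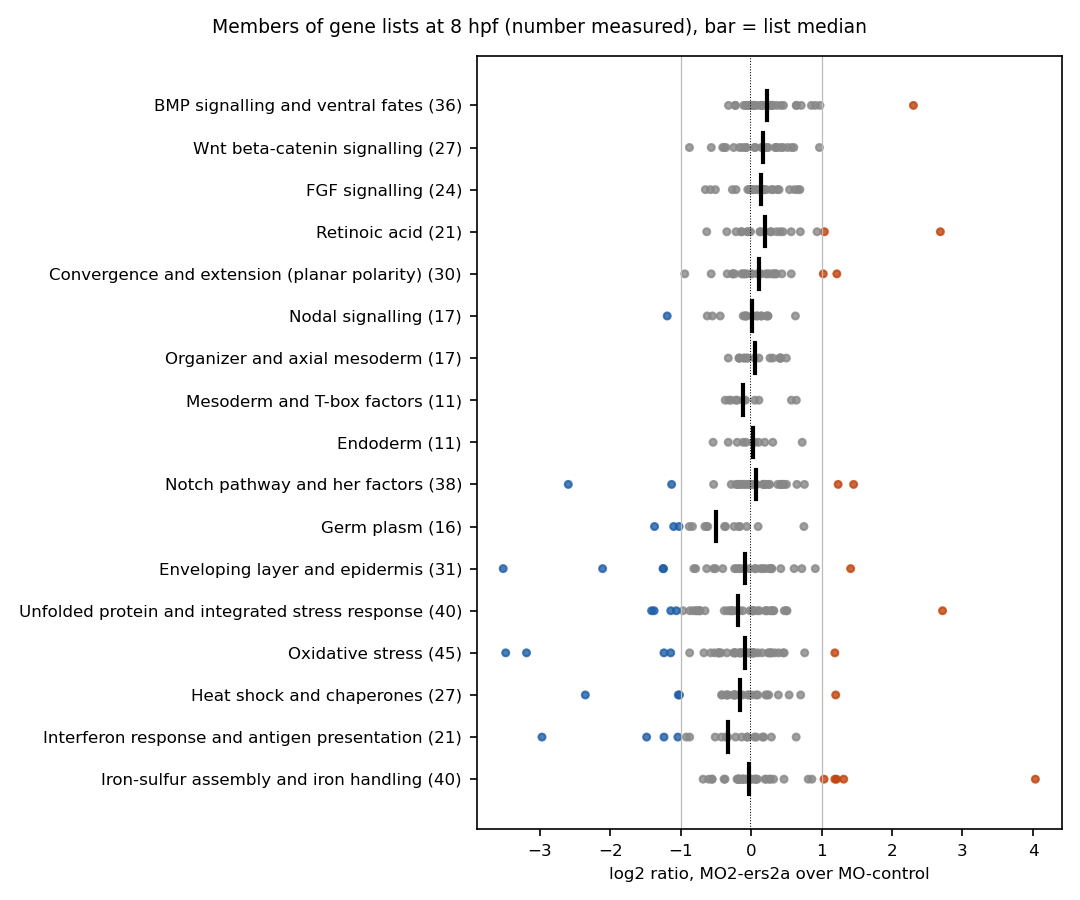
log2 ratios of MO2-ers2a over MO-control at 8 hpf for the measured members of 17 gene lists (number measured after each name), with orange points 2-fold or more higher, blue points 2-fold or more lower and grey points between, black bars for list medians and a dotted line at the median of all genes. The Germ plasm bar lies farthest to the left and the BMP bar is the one farthest to the right of these lists.

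In the BMP list, 29 of 36 measured genes lay above the median of all genes, and the list median was 0.24 above it, between 0.21 and 0.34 over all settings tried. BMP signals are strongest on the ventral side, where they drive epidermis and ventral mesoderm. The target gene id1, an inhibitor of basic helix-loop-helix factors, was the 1 member past 2-fold, a share near the 2.32% of all genes. Its signal was 18568 in MO2-ers2a embryos and 3760 in MO-control embryos, a log2 ratio of 2.30 on 1 spot. Below 2-fold stood drl, a marker of lateral mesoderm, at 0.98, tp63, a factor of the ventral ectoderm, at 0.91 with spots at 0.67 and 1.15, and the ligand gene bmp4 at 0.71 with spots at 0.58 and 0.85. The ventral repressor genes vox at 0.04 and vent at 0.08 lay near 0, and msx1b was the lowest member at -0.32. Among the antagonists, chrd, which encodes Chordin of the organizer, stood at 0.31.

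In the Wnt beta-catenin list, 17 of 27 measured genes lay above the median of all genes, and 0 passed 2-fold in either direction. The ventrolateral ligand gene wnt8a came closest, with 3193 in MO2-ers2a embryos and 1629 in MO-control embryos and spots at 0.95 and 0.99. The transcription factor gene lef1 stood at 0.61 and the receptor gene fzd3b at -0.87, each on 1 spot. The list median was 0.19 above that of all genes, between 0.09 and 0.35 over the settings. Of 17 Wnt ligand genes on the array, 4 were measured and all 4 lay above the median of all genes. Among them, wnt5b, whose ligand acts in the convergence and extension movements through planar polarity, was 2-fold higher, with 909 in MO2-ers2a embryos and 391 in MO-control embryos. In the convergence and extension list, wnt5b and prickle1a were 2-fold higher of 30 measured and 0 were 2-fold lower. Among all genes 2.32% were higher and 2.25% lower. prickle1a, a core planar polarity gene, is uncertain, since its spots gave -0.40 and 2.45 and its brightest spot alone stood at -0.40. The kinase-activated factor gene stat3, at -0.94 with spots at -1.47 and -0.41, was the lowest of that list.

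In the FGF list 17 of 24 measured genes lay above the median of all genes. Past 2-fold either way were 0 of the 24, beside 4.57% of all genes. The ligand gene fgf8a had 5085 in MO2-ers2a embryos and 3239 in MO-control embryos, with 3 spots between 0.65 and 0.82, and the receptor gene fgfr2 stood at 0.69. The lowest were fgfrl1b, which encodes a receptor without a kinase domain, at -0.65 and the kinase gene mapk3 at -0.58.

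Retinoic acid carries positional signals from vitamin A and patterns the trunk and hindbrain. In its list, 14 of 21 measured genes lay above the median of all genes. Of the 21, 2 were 2-fold higher and 0 were 2-fold lower, beside 2.32% and 2.25% of all genes. Both higher genes encode retinol or steroid dehydrogenases of the short-chain family. rdh12l had 1156 in MO2-ers2a embryos and 180 in MO-control embryos, and dhrs9 had 10291 in MO2-ers2a embryos and 5001 in MO-control embryos. The degrading enzyme gene cyp26c1 stood at 0.94 and the receptor gene raraa at 0.70. The binding protein gene crabp2a was the lowest at -0.63. The hox genes, which respond to retinoic acid and pattern the body axis, had 21 of 28 measured members above the median of all genes and 0 past 2-fold in either direction, with a median 0.42 above it.

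Lists of the dorsal organizer, the mesoderm and the endoderm lay close to the other genes. Of 17 organizer genes, 11 mesoderm and T-box genes and 11 endoderm genes measured, 0 passed 2-fold in either direction. The organizer gene gsc stood at 0.41, the mesoderm gene tbxta at 0.11, and the endoderm factor gene sox32 at -0.54 with spots at -0.68 and -0.40. In the Nodal list 1 of 17 measured genes was 2-fold lower and 0 were higher, beside 2.25% lower and 2.32% higher among all genes. The lower gene was the ligand gene ndr1, with 132 in MO2-ers2a embryos and 301 in MO-control embryos, near the dim end of the array. The ligand gene ndr2 stood at 0.08. The feedback inhibitors of Nodal, lft1 and lft2, both stood at 0.24.

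In the Notch pathway, through which neighbouring cells signal by contact, 2 of 38 measured genes were 2-fold higher and 2 were 2-fold lower. Among all genes 2.32% were higher and 2.25% lower. All but 1 of these 4 Notch pathway genes were repressors of the hairy-related family. her12, an oscillating gene of the presomitic mesoderm, had 1528 in MO2-ers2a embryos and 557 in MO-control embryos. her13 had 84.6 in MO2-ers2a embryos and 510 in MO-control embryos, and her5, a gene of the midbrain-hindbrain boundary, stood at -1.13 with spots at -1.62 and -0.64. The other was ncstn, a subunit of the gamma-secretase that cleaves Notch, at 1.24.

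Transcripts of the germ plasm, the egg-derived material that sets aside the germ line, were the list with the lowest median of the 17 in the plot of lists. Of 16 measured genes, 14 lay below the median of all genes, 3 were 2-fold lower and 0 were 2-fold higher, beside 2.25% lower and 2.32% higher among all genes. The list median was 0.48 below that of all genes, and its distance lay between -0.71 and -0.35 over the settings. rbpms2a, an RNA-binding protein gene, had 368 in MO2-ers2a embryos and 950 in MO-control embryos. dazl, an RNA-binding protein gene of germ cells, had 358 in MO2-ers2a embryos and 819 in MO-control embryos, with 3 spots from -1.19 to -0.19, and gra had 92.8 in MO2-ers2a embryos and 188 in MO-control embryos. The signals of gra were dim and came from 1 spot, and genes this dim held 2-fold calls on the lower side only. The germ cell helicase gene ddx4, known as vasa, went the other way at 0.75, with spots at 0.67 and 0.83. Egg transcripts outside the germ plasm had a median 0.17 below that of all genes. Of 25 measured, 1 was 2-fold lower, the claudin gene cldnd, with 951 in MO2-ers2a embryos and 2656 in MO-control embryos. In the list of factors that clear maternal RNA, 0 of 35 measured passed 2-fold either way.

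The enveloping layer is the flat epithelium that covers the gastrula. In its list 4 of 31 measured genes were 2-fold lower and 1 was 2-fold higher, beside 2.32% higher and 2.25% lower among all genes, while the list median lay between 0.13 below and 0.19 above that of all genes, depending on the setting. Next to s100a10b and cldnb, described above, the lower genes were the S100 gene icn, with 605 in MO2-ers2a embryos and 2605 in MO-control embryos, and the keratin gene krt91, with 291 in MO2-ers2a embryos and 690 in MO-control embryos. The higher gene was anxa1d, an annexin, with 1484 in MO2-ers2a embryos and 557 in MO-control embryos. Annexins bind membranes in a calcium-dependent way. Of 13 measured annexin genes 2 were 2-fold higher, anxa1d and anxa2a, and anxa2a had 3542 in MO2-ers2a embryos and 1064 in MO-control embryos. Most annexins went the other way: 9 of the 13 lay below the median of all genes. The family median was 0.25 below it, its distance lying between -0.38 and -0.24 over the settings. anxa1c was measured in the MO2-ers2a channel only, at least 5.11-fold higher, and is in none of these counts. Of 10 measured S100 genes, 3 were 2-fold lower (s100a10b, icn and s100t at -1.41) and 1 was 2-fold higher (s100s at 1.17).

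Some genes of protein folding in the endoplasmic reticulum were among the lower ones. The unfolded protein response is the programme by which a cell raises chaperones and degradation factors when proteins misfold in that compartment.

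**Figure D4:**
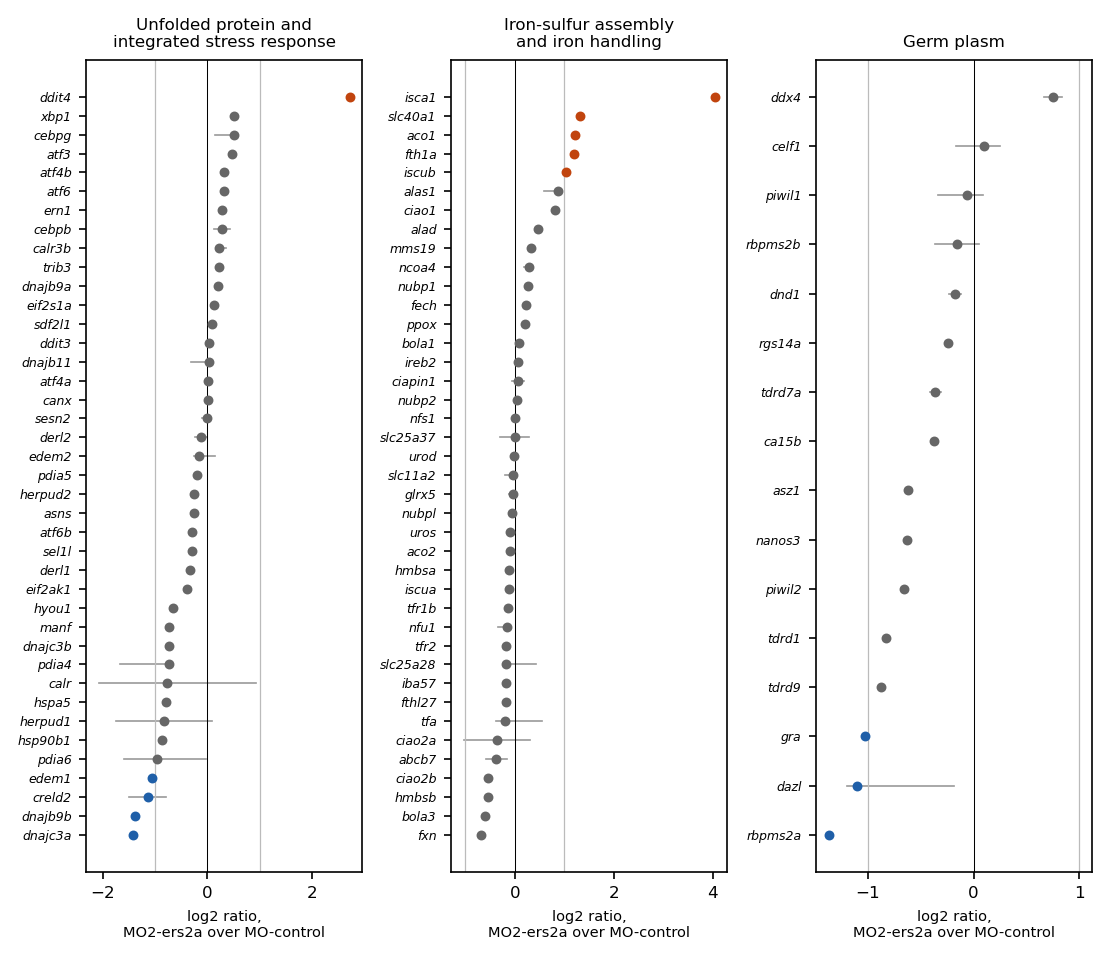
log2 ratio of MO2-ers2a over MO-control at 8 hpf for every measured gene of the lists of the unfolded protein and integrated stress response (40 genes), iron-sulfur assembly and iron handling (40) and germ plasm (16), with points for the gene value, grey lines from its lowest to its highest spot and vertical lines at 2-fold. The orange points (2-fold higher) are ddit4 in the stress list and 5 genes in the iron list, and the blue points (2-fold lower) are 4 genes of the stress list and 3 of the germ plasm list.

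Of the 40 measured genes of this list, 4 were 2-fold lower and 1 was 2-fold higher, beside 2.25% lower and 2.32% higher among all genes. Of the 40, 22 lay below the median of all genes and 18 above it. The list median was 0.17 below that of all genes, its distance lying between -0.23 and -0.11 over the settings. The 4 genes that were 2-fold lower all act inside the endoplasmic reticulum. dnajc3a and dnajb9b encode co-chaperones of BiP. The signal of dnajc3a was 900 in MO2-ers2a embryos and 2393 in MO-control embryos, and that of dnajb9b 252 in MO2-ers2a embryos and 654 in MO-control embryos. edem1, which hands misfolded glycoproteins to degradation, had 1134 in MO2-ers2a embryos and 2364 in MO-control embryos, and creld2 stood at -1.14 with spots at -1.49 and -0.79. Further chaperone genes of the compartment lay below 0 without reaching 2-fold, and they were chosen for mention after their values were seen. BiP itself, hspa5, had 17387 in MO2-ers2a embryos and 29919 in MO-control embryos, with spots at -0.81 and -0.76, and hsp90b1 had spots at -0.89 and -0.84. manf stood at -0.72 and hyou1 at -0.65, whereas the spots of calr, from -2.07 to 0.93, disagreed. Of the transcription factor genes of the response, xbp1 stood at 0.51, atf4b at 0.32, ddit3 at 0.04 and atf4a at 0.02. The higher gene, ddit4, encodes an inhibitor of mTORC1 and had 2244 in MO2-ers2a embryos and 341 in MO-control embryos.

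In the oxidative stress list, 4 of 45 measured genes were 2-fold lower and 1 was 2-fold higher, against 2.25% and 2.32% of all genes. sqstm1, an autophagy receptor that also feeds the Nrf2 pathway, had 899 in MO2-ers2a embryos and 8178 in MO-control embryos. abcc2, an exporter of conjugates, had 90.9 in MO2-ers2a embryos and 1015 in MO-control embryos. The others were hmox1a and prdx4, a peroxiredoxin of the endoplasmic reticulum, whose spots stood at -1.53 and -0.75. The quinone reductase gene nqo1, mentioned after its value was seen, had spots at -0.96 and -0.78. Of the 45, 26 lay below the median of all genes and 19 above it. The list median lay between 0.13 below and 0.00 from that of all genes over the settings. The 1 higher gene was fth1a, and gpx4a, a lipid peroxidase, followed at 0.76.

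In the heat shock list, 3 of 27 measured genes were 2-fold lower and 1 was 2-fold higher, where 2.25% and 2.32% of all genes were. The inducible chaperone gene hsp70l had 516 in MO2-ers2a embryos and 2635 in MO-control embryos, and hsf1, the factor that drives the heat shock response, had 1725 in MO2-ers2a embryos and 3526 in MO-control embryos. hspbp1, a regulator of Hsp70, stood at -1.02. hspa13, an Hsp70 relative, had 338 in MO2-ers2a embryos and 147 in MO-control embryos, and the small heat shock gene hspb1 stood at 0.70.

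Interferon and antigen presentation genes had 15 of 21 measured members below the median of all genes, with 4 of them 2-fold lower and 0 higher, beside 2.25% of all genes lower and 2.32% higher. The list median was 0.31 below that of all genes, and its distance lay between -1.01 and -0.15 over the settings. b2m, whose product is the invariant chain of class I antigen-presenting molecules, had 182 in MO2-ers2a embryos and 1423 in MO-control embryos. The proteasome activator gene psme1 stood at -1.04 and ifit8 at -1.23. The signals of ifit8 were dim, 79.6 in MO2-ers2a embryos and 187 in MO-control embryos. irf9, which encodes a factor of the interferon signal, was the highest at 0.64. Of 39 measured proteasome genes, 2 were 2-fold lower, psmb10 and psmb12, both at -1.01, and 0 were higher. The signals of psmb12 were dim too, 87.4 in MO2-ers2a embryos and 176 in MO-control embryos.

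Some genes of iron handling were among the higher ones. Iron-sulfur clusters are cofactors assembled in mitochondria, and ferritin and ferroportin store and export iron. Of 40 measured genes in this list 5 were 2-fold higher and 0 were 2-fold lower, beside 2.32% of all genes that were higher. Of the 40, 21 lay below the median of all genes and 19 above it. The list median lay from 0.04 below to 0.11 above that of all genes, depending on the setting. Next to isca1, a cluster assembly factor, the cluster scaffold gene iscub had 1431 in MO2-ers2a embryos and 698 in MO-control embryos. aco1, whose protein is an aconitase that without its cluster binds RNA as an iron regulator, had 491 in MO2-ers2a embryos and 212 in MO-control embryos. The iron exporter gene slc40a1, ferroportin, had 329 in MO2-ers2a embryos and 132 in MO-control embryos. Below 2-fold, alas1, the starting enzyme of heme synthesis, stood at 0.86. The frataxin gene fxn was the lowest at -0.68.

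Other parts of the mitochondrion held calls both ways. Of 61 measured mitochondrial ribosomal protein genes, 3 were 2-fold higher (mrpl20, mrps34 and mrpl23, from 1.04 to 1.06) and 3 were 2-fold lower (mrps16 at -1.49, mrps31 with 1697 in MO2-ers2a embryos and 3906 in MO-control embryos and mrpl51 at -1.08). Of 30 genes of respiratory complex I, ndufa1 was 2-fold lower at -1.36 and 0 were higher. Of 21 genes of complexes II to IV, 2 were 2-fold lower, uqcrc2a at -1.10 and cox5b2 at -1.13. The shares past 2-fold were 9.84% for the mitochondrial ribosomal proteins, 3.33% for complex I and 9.52% for complexes II to IV. Among all genes the share was 4.57%, with 2.32% higher and 2.25% lower. The medians of both respiratory groups changed sides of the median of all genes with the setting.

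In the apoptosis list 1 of 29 passed 2-fold, beside 4.57% of all genes. The gene was tnfaip2a, with 1521 in MO2-ers2a embryos and 188 in MO-control embryos, and the death effector gene baxb was the lowest at -0.99.

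In metabolism and growth, the calls were scattered. They are to be read beside 2.32% higher and 2.25% lower among all genes. The lactate dehydrogenase gene ldhba was the 1 member of 28 glycolysis genes past 2-fold, with ldha at 0.91 and the hexokinase gene hk1 at -0.99. Of 36 genes of the methionine cycle and its neighbours, gnmt was 2-fold higher and ass1, which makes argininosuccinate, 2-fold lower at -1.31. In the cholesterol list dhcr7 was the 1 of 21 past 2-fold, and the sterol enzyme gene cyp51 stood at -0.52 with spots at -1.38 and 0.33. In steroid synthesis, cyp11a1.1, whose enzyme cuts the cholesterol side chain, had 3 spots from -0.46 to 4.36 and cyp17a1 3 spots from 0.26 to 2.14, so both calls, at 2.41 and 1.18, are uncertain. Of 42 genes of mTORC1 and autophagy, 2 were 2-fold higher (ddit4, and atg14, which starts autophagosomes, at 1.22) and 1 was 2-fold lower (sqstm1), with 28 below the median of all genes. Of 71 cell cycle genes, 0 were 2-fold higher and 1 was lower, the egg cyclin gene ccna1 at -1.05. Of 16 genes of the chaperonin and prefoldin, pfdn2 was 2-fold higher, with 1760 in MO2-ers2a embryos and 209 in MO-control embryos, and the tubulin cofactor gene tbcb was lower at -1.33. Of 15 genes of the yolk syncytial layer and lipoproteins, hnf4b, a nuclear receptor gene, was 2-fold lower at -1.94.

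Some genes passed the limit in 1 channel only, and for these a bound is given. It divides the bright signal by the dim one, or by the lowest signal measured in the dim channel where that is larger. For this bound, the mean signals of the 2 arrays were first given the same distribution with the Aquantile method of limma. The signals in this paragraph are therefore on another scale than those of the other paragraphs. Since dim signals carry noise, the bound is not a strict limit. In the MO2-ers2a channel only, 4872 genes and transcripts were measured, and 80 had a bound of 2-fold or more. The gene ccdc137 was at least 25.3-fold higher, with 2881 in MO2-ers2a embryos against a limit of 114 in MO-control embryos. The lipase gene pnpla3 was at least 8.17-fold higher over 2 spots, and the sugar deacetylase gene amdhd2 at least 5.69-fold. In the MO-control channel only, 514 were measured and 23 had such a bound. supt3h, a subunit of a transcription coactivator, was at least 3.92-fold lower, the ubiquitin ligase gene trim25 at least 3.10-fold, and ncf1, a subunit of the phagocyte oxidase, at least 3.02-fold. The unequal numbers go with the unequal limits, which were lower in Cy5.

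**Figure D5:**
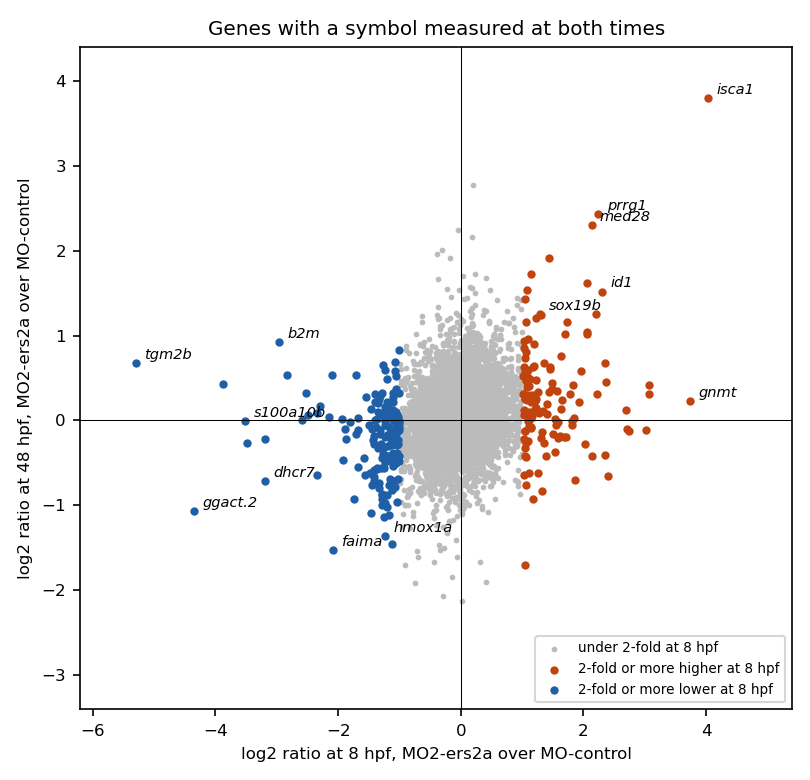
log2 ratio of MO2-ers2a over MO-control at 8 hpf (horizontal) and 48 hpf (vertical) for 7585 genes with a symbol measured at both times, with orange points 2-fold or more higher, blue points 2-fold or more lower and grey points under 2-fold at 8 hpf. Most orange and blue points lie within 2-fold at 48 hpf, and isca1 stands alone at the upper right.

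The 48 hpf array used other RNA of embryos with the same pair of morpholinos and the same dye orientation. On that array 1.27% of genes and transcripts were 2-fold higher and 1.25% 2-fold lower. Of 303 genes and transcripts that were 2-fold higher at 8 hpf and measured at 48 hpf, 36 were 2-fold higher at 48 hpf too, 1 was 2-fold lower, and 214 were within 1.5-fold. Of 293 that were 2-fold lower at 8 hpf, 18 were 2-fold lower at 48 hpf, 1 was 2-fold higher and 223 were within 1.5-fold. Of all 13180 genes measured at both times, 1.31% were 2-fold higher and 0.83% 2-fold lower at 48 hpf. Both arrays share the dye orientation, and a gene-specific dye bias and a lasting difference cannot be told apart from these values.

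With a symbol, 18 genes were 2-fold higher at both times and 8 were 2-fold lower at both. isca1 stood at 4.03 at 8 hpf and 3.80 at 48 hpf, and prrg1 at 2.24 and 2.43 at these times. The mediator subunit gene med28 stood at 2.13 and 2.30 and id1 at 2.30 and 1.52. sox19b stood at 1.30 and 1.25, efcab11 at 2.06 and 1.02, and sdhaf2 at 1.43 and 1.92. These genes were picked for being 2-fold on the same side at both times. Their later values were of a similar or smaller size, except for prrg1, med28 and sdhaf2, where they were somewhat larger. The lower genes included ggact.2 at -4.35 and -1.06, faima, an inhibitor of Fas-mediated death, at -2.09 and -1.53, and hmox1a at -1.24 and -1.36. They also included the nuclear receptor genes nr2c2 at -1.17 and -1.11 and nr2e3, a photoreceptor factor, at -1.12 and -1.45. At 8 hpf nr2c2 had 82.4 in MO2-ers2a embryos and 186 in MO-control embryos, and nr2e3 had 75.5 and 164, each on 1 spot. Genes this dim held 2-fold calls on the lower side only at 8 hpf. By contrast s100a10b stood at -0.01 at 48 hpf, her13 at 0.01, cldnb at -0.01 and ldhba at -0.14.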

How the data were processed

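Whole-embryo total RNA was measured on Agilent 2-colour arrays, 1 for each stage. The deposited scanner tables hold intensity per spot, the median signal and median local background of each channel per the file headers. The deposited value table holds log10 ratios of Cy5 over Cy3, converted here to log2; 15749 spots stand at exactly 0 and were treated as not measured. Per the submitters' processing notes the tool was Agilent Feature Extraction, of a version not given in the sources used here, as is the dye normalization. R 4.3.3 with limma 3.58.1 served to correct background by normexp with an offset of 50 and to normalize ratios by loess with control spots at weight 0; the procedure was tested on simulated data. Tables and figures were made with pandas 2.3.3, numpy 2.4.6 and matplotlib 3.10.9 under Python 3.11.15. With 1 array, their number limits the precision and no test between groups was possible.

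Names were updated through an NCBI RefSeq table of assembly GRCz12tu and Ensembl names: 18989 spots received 12603 symbols, 176 were ambiguous and 23157 unmatched, and the last 2 kinds are counted but not named. Repeated spots of a probe and different probes of a gene were not told apart. The 38 gene lists (1656 symbols, 1311 on the array, 1058 measured), the 61 gene families and the genes examined were chosen with earlier results of these data known, and 1 list is not reported here. Named genes are the 12 highest and 12 lowest whose spots all passed 2-fold, also by the deposited ratio; 8 each way with 1 spot; members of lists past 2-fold with up to 3 highest and 3 lowest; up to 3 each way per family; 6 each way by bound; genes 2-fold at both times; and the estrogen receptors. Other genes named were chosen after their values were seen: hspa5, hsp90b1, manf, hyou1, calr, atf4a, atf4b, ddit3, nqo1, alas1, bmp4, vox, vent, chrd, ved, gsc, ndr2, raraa, ggact.1 and neurod6b. Alternatives were other scalings, background corrections, filters on dim spots, the brightest spot of a gene, and the deposited ratios.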

Additional observations from a re-analysis of the deposited data

Results flagged for a closer look

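Several genes that were 2-fold or more higher or lower at 8 hpf lay on the other side of 0 at 48 hpf by more than the pooled SD between spots. This limit was chosen after seeing that no gene named by the rule was 2-fold in opposite directions at the 2 stages; neurod6b, outside the rule, was. The difference between stages was not tested, since each rests on 1 array, and signs near 0 depend on the scaling. Values are the log2 ratio at 8 hpf minus that at 48 hpf. Among genes lower at 8 hpf, the difference was -5.97 for tgm2b, -4.31 for quob, -3.89 for b2m and -3.36 for nap1l4a, a histone chaperone. It was -2.64 for icn, -1.84 for the GTPase gene rab12, -1.61 for immp2l, -1.58 for dnajc19, a co-chaperone of mitochondrial import, and -1.34 for hspbp1. Among genes higher at 8 hpf, it was 3.06 for cyp11a1.1, 2.75 for f13a1b, 2.15 for hnrnpa0a, an RNA-binding protein gene, and 2.11 for cyp17a1. It was 1.45 for dhrs9 and 1.37 for efnb2b, an ephrin ligand. The differences of cyp11a1.1 and cyp17a1 are uncertain. At 8 hpf cyp11a1.1 had 3 spots from -0.46 to 4.36, against 1 measured spot at 48 hpf. The 3 spots of cyp17a1 at 8 hpf ran from 0.26 to 2.14.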

How the results depend on the processing

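The counts of 356 higher and 346 lower genes depend on the scaling. Centring without loess on measured spots gave 633 lower, on spike-in spots 171 higher and 2148 lower, and on all spots 2491 higher and 96 lower. Loess followed by spike-in centring, an alternative chosen after seeing the data, gave 234 higher and 551 lower. The authors' deposited ratios gave 705 higher and 1030 lower, background subtraction without normexp 602 lower, and signals above 4 times the limit 189 higher, of 9108 genes that passed it in place of 15357. Under the deposited ratios, 346 of the 356 higher and 343 of the 346 lower genes were 2-fold the same way and 0 had the opposite sign. The cause of these shifts was not tested. Of 289 named genes, 273 moved by over 0.32 with centring on all spots without loess, and 136 with centring on spike-in spots without loess. Under the deposited ratios 78 did, and without normexp 40 did. Some also changed sign. cyp11a1.1 went to -0.46, prickle1a to -0.40 and rpl36 to -0.01 with the brightest spot and with the stricter limit, settings that leave out dimmer spots. slc6a9 went to 0.01 with no filter, which adds dim spots. aifm1 went to 0.14 with centring on all spots without loess. Smaller moves of group medians are given as ranges beside the medians of some groups, and not for the others. Group medians, as distances from all genes, moved by over 0.32 as follows. Without loess they moved to 0.49 for large and 0.51 for small ribosomal subunits, 0.37 for minichromosome maintenance and -0.70 for interferon genes. With the stricter limit they moved to -1.01 for interferon, -0.96 for S100 and -0.08 for steroid genes. No paired analysis was possible because each stage has 1 array. Below the detection limit, a difference was not detectable.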

Other observations

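Shares past 2-fold are given here by gene family at 8 hpf, beside 4.57% over all genes. Of 22 measured claudin genes, whose proteins seal tight junctions, 13.6% passed 2-fold: cldnk was higher, with 865 in MO2-ers2a embryos and 391 in MO-control embryos, and cldnb and cldnd were lower. Of 31 cytochrome P450 genes 9.68% did, with cyp11a1.1 higher on spots from -0.46 to 4.36, cyp17a1 higher on spots from 0.26 to 2.14, and cyp20a1 lower at -1.89. Of 33 genes of the ARF family of trafficking GTPases and their activators 9.09% did, with arfgap1 higher at 3.05 and arl2 at -1.68 and arl16 lower. Of 34 DnaJ co-chaperone genes 8.82% did, all lower: dnajc3a, dnajb9b and dnajc19. Each of these shares rests on 3 genes. Of 151 measured solute carrier genes in this family as defined by name, 4 were 2-fold higher and 1 was 2-fold lower. The definition does not take in every solute carrier gene. Both slc40a1 and slc35d1b, described above, were 2-fold higher, and the 4 do not include both. The glutamate transporter gene slc1a3a had 4009 in MO2-ers2a embryos and 860 in MO-control embryos, the zinc transporter gene slc39a13 had 2494 in MO2-ers2a embryos and 659 in MO-control embryos, and the mitochondrial phosphate carrier gene slc25a3a stood at 2.02. The lower one, slc6a9, a glycine transporter gene, was dim in both channels, at 89.2 in MO2-ers2a embryos and 185 in MO-control embryos. Of 102 measured genes named TMEM for a transmembrane domain, 5 were 2-fold lower and 0 higher, with a median 0.14 below that of all genes. The spliceosome had 0 of 59 measured genes past 2-fold, and the small ribosomal subunit 0 of 33. Of 12 measured ephrin and ephrin receptor genes, 10 lay above the median of all genes, and efnb2b was 2-fold higher at 1.05. Of 19 measured deubiquitinase genes of the USP family, 15 lay above it and 0 passed 2-fold.

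The gene neurod6b, a neuronal differentiation factor, was 2-fold higher at 8 hpf and 2-fold lower at 48 hpf, at 1.05 and -1.70. It was found after its values were seen, and its 8 hpf signals were 262 in MO2-ers2a embryos and 127 in MO-control embryos.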
